A study of Rattus norvegicus with 8 samples.

Results

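Genes through which astrocytes handle glutamate, water, calcium and lipid were followed in the upper spinal cord of injured rats: Slc1a2, Slc1a3, Glul, Aqp4, S100b and Apoe. They are 6 of the 32883 genes of the deposited table and were chosen by their Ensembl rat identifiers. The table carries identifiers alone, and 0 of them matched the gene table used here, so the pairing of each identifier with its symbol was supplied with the selection and could not be checked. The identifiers are ENSRNOG00000005479 for Slc1a2, ENSRNOG00000016163 for Slc1a3, ENSRNOG00000049560 for Glul, ENSRNOG00000016043 for Aqp4, ENSRNOG00000001295 for S100b and ENSRNOG00000018454 for Apoe. All samples came from Sprague Dawley rats, an outbred strain, that had a spinal hemisection at thoracic segment 9, and the tissue was the intact cord above the lesion, 23 days after the injury. The trained group held 4 samples and the untrained group the other 4. The design asks whether training changes transcript levels in this tissue. There is no uninjured group, and the sources used here do not give the kind of training or the sex and age of the animals.

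Astrocytes clear glutamate that neurons release. The transporters Slc1a2 (GLT-1, EAAT2) and Slc1a3 (GLAST, EAAT1) carry it into the cell together with sodium, and glutamine synthetase, the product of Glul, turns it into glutamine, which is passed back to neurons. Aqp4, the main water channel of the central nervous system, sits in the astrocyte endfeet around blood vessels. S100b is a small calcium-binding protein of astrocytes that is also made by some oligodendrocytes. Apoe is the lipid carrier that astrocytes secrete to supply cholesterol to other cells, and activated microglia make it as well. Glul is likewise found in part of the oligodendrocytes of the cord. In a piece of whole tissue, fewer cells of a type and less RNA per cell cannot be told apart.

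The promoters of Apoe and Slc1a3 are shown because these genes bracket the members with usable counts, Apoe having the highest level and Slc1a3 the lowest. Both sequences are the 250 bases before the outermost of the 3 start sites that RefSeq lists for the gene in build GRCr8, written 5′ to 3′ on the gene's own strand, which is the minus strand for both. They lie at chr1:88485817-88486066 for Apoe and chr2:59557809-59558058 for Slc1a3, and the genes themselves span 88481889 to 88485816 on chromosome 1 and 59482707 to 59557808 on chromosome 2. Capitals mark the nuclear factor I half-site TTGGC, read on either strand, and the SOX core ACAAAG.
Apoe: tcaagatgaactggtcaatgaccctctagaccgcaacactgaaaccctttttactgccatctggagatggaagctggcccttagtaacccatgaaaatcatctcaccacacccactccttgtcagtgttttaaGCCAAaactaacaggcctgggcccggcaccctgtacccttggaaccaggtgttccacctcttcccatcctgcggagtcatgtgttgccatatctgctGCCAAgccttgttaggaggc
Slc1a3: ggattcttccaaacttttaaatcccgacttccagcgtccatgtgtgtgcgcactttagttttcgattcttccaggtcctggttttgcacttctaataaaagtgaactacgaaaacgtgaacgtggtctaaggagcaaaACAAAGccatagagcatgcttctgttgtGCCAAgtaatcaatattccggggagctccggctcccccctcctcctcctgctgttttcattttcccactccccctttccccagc
Nuclear factor I and SOX proteins are transcription factors of glia. TTGGC stood in the 250 bases before the outermost listed start in 3 of the 6 members (Apoe, Slc1a3 and S100b) and in 40.3% of the 33469 windows of all genes. For S100b and Aqp4 that start lies inside the gene's annotated span, and both S100b matches fall within the span. ACAAAG stood in 1 member (Slc1a3) and in 16.3% of all windows. The second SOX core searched, ACAATG, and the TATA box TATAAA stood in 0 of 6 members, and in 11.1% and 12.9% of all windows. These matches describe letters in 1 window per member, while the shares over all windows include every listed start of a gene. The libraries count 3′ ends and do not show which start site was used.

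Libraries held between 141737 and 298262 counts. Levels are given as CPM, the count divided by the library's total and scaled to a total of 1000000. Each count stands for 1 captured 3′ end, so values were not divided by transcript length, and the capture of 3′ ends may differ between genes. Together the 6 genes took 1.16% to 1.27% of the counts in the untrained libraries and 1.15% to 1.49% in the trained ones.

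Of the 6 genes, 5 were abundant and 1 was nearly absent. Ranked by mean CPM among the 12545 genes with any count, Apoe was at place 13, Aqp4 at 36, Glul at 64, S100b at 95 and Slc1a3 at 524. Slc1a2 was at place 9448. Apoe had the highest count of the members in 8 of 8 libraries and Slc1a3 stood above Slc1a2 and below the other 4 in 8 of 8. The genes in the middle of the order were less separate. Aqp4 exceeded Glul in 6 of 8 libraries, the exceptions being sample 3 of both groups, and Glul exceeded S100b in 7 of 8, the exception being untrained sample 4. Over the 8 libraries Aqp4 ran from 1538 to 3076 CPM, Glul from 1281 to 2035 CPM and S100b from 966 to 1724 CPM, so these ranges overlapped.

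**Figure D1:**
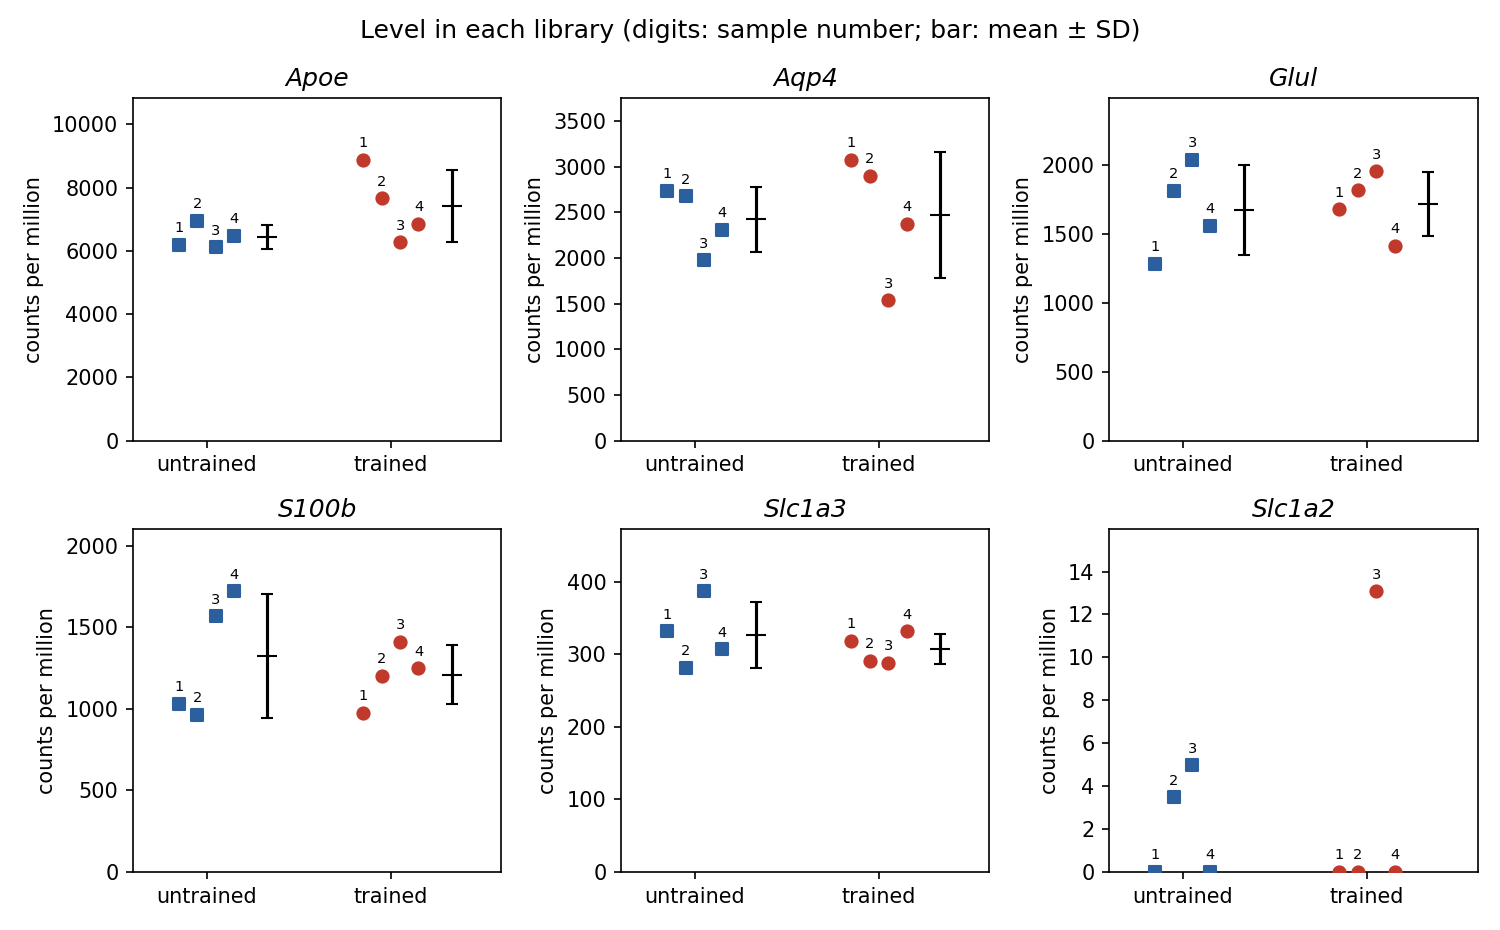
CPM of each gene (vertical axes, each from 0) in the 4 untrained (blue squares) and 4 trained (red circles) libraries, labelled with the sample number. Bars show the mean ± SD over 4 libraries, except for Slc1a2, which has no bar. The groups overlap for all 6 genes, sample 3 has the lowest Aqp4 value of each group, and the Slc1a2 points stand for at most 2 counts.

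Slc1a2 had 4 counts in all. Untrained samples 1 to 4 held 0, 1, 1 and 0 counts and trained samples 1 to 4 held 0, 0, 2 and 0. The 5 libraries without a count allow a level of up to 10.1 to 21.2 CPM each (3 counts, counting error only). This transcript encodes the main glutamate transporter of mature astrocytes, and its row was nearly empty in a tissue where the other members were abundant. The value covers only 3′ ends that the authors' annotation, of a release not given here, assigned to this identifier, and it is not a measure of transcript ending elsewhere. The row did not pass the expression filter and was not tested, and no statement about Slc1a2 with training was possible at this depth. Neither that assignment nor the pairing of identifier and symbol was tested.

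Slc1a3, the other astrocyte glutamate transporter, was low among the abundant members and varied little. Its level was 332, 281, 387 and 307 CPM in untrained samples 1 to 4 and 319, 291, 288 and 332 CPM in trained samples 1 to 4, from 44 to 99 counts. All values but the 387 CPM of untrained sample 3 lay within 281 to 332 CPM. The coefficient of variation was 6.93% in trained libraries, where counting alone would give 13.8%, and 13.8% in untrained ones, where counting would give 11.6%. Its spread was therefore of the size that the counts themselves produce.

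Glul, glutamine synthetase, was measured at 1281, 1810, 2035 and 1556 CPM in untrained samples 1 to 4 and at 1676, 1814, 1951 and 1411 CPM in trained samples 1 to 4. In both groups sample 3 was the highest. Sample 2 of the 2 groups was nearly equal, with a ratio of trained to untrained of 1.003. Within each library the count of Glul was 3.86 to 6.43 times that of Slc1a3 without training and 4.26 to 6.77 times with training. These ratios do not depend on how libraries are scaled, and they overlapped between the groups (5.16 ± 1.05 untrained, 5.63 ± 1.11 trained, SD, n = 4).

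Aqp4, the water channel, had 2739, 2678, 1976 and 2309 CPM in untrained samples 1 to 4 and 3076, 2899, 1538 and 2378 CPM in trained samples 1 to 4. Samples 1 and 2 were high and sample 3 low in both groups. The trained values held both the highest and the lowest of the 8, and the coefficient of variation was 27.9% with training and 14.6% without, where counting alone would give 4.80% and 4.18%. Whether the spread differs between groups was not tested.

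S100b was measured at 1033, 966, 1569 and 1724 CPM in untrained samples 1 to 4 and at 976, 1205, 1414 and 1249 CPM in trained samples 1 to 4. Here samples 3 and 4 were the high ones in each group. The coefficient of variation was 28.7% without training and 14.9% with it, against 5.88% and 6.998% from counting.

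Apoe, the lipid carrier, had 6189, 6943, 6111 and 6471 CPM in untrained samples 1 to 4 and 8877, 7668, 6278 and 6851 CPM in trained samples 1 to 4. Trained samples 1 and 2 lay above all untrained values, trained samples 3 and 4 within the untrained range. The untrained libraries were close together, with a coefficient of variation of 5.85% against 2.59% from counting; the trained ones had 15.2% against 2.79%.

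No member differed between trained and untrained cord past the threshold. Of the 5 members tested, 0 reached an adjusted p under 0.05 (edgeR quasi-likelihood test, Benjamini-Hochberg over 3016 genes), where 0% of all genes tested did so. The count of members at an unadjusted p under 0.05 was also 0, against 1.69% of all genes. DESeq2 and limma voom likewise called 0 of the 5, and each called 0 of all genes. Both gave 0 of the 5 an unadjusted p under 0.05, against 60 of 12539 genes with DESeq2 and 53 of 3016 with limma voom. Fitted levels were higher with training for 3 members and lower for 2, with a median log2 fold change of 0.09; over all 3016 genes 1476 were higher and 1540 lower, with a median of -0.005. With column totals, the scaling of the CPM values, 1148 of the 3016 genes were higher and the median over all genes was -0.07. For 0 of the 5 did the CPM of the groups separate without overlap, which 1.46% of all genes did.

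Among the members, Apoe had the largest fitted difference. Its level was 7418 ± 1128 CPM in trained and 6428 ± 376 CPM in untrained libraries (SD, n = 4). In the edgeR fit this gave 0.27 on the log2 scale with a standard error of 0.21, a 95% interval of -0.17 to 0.71 and an adjusted p of 0.999. Glul was at 1713 ± 230 CPM with and 1671 ± 325 CPM without training (SD, n = 4), a fitted log2 fold change of 0.10 with a 95% interval of -0.37 to 0.56. For both genes the trained and untrained values overlapped and the intervals included 0. Aqp4 was at 2473 ± 690 CPM with and 2426 ± 355 CPM without training (SD, n = 4), a fitted log2 fold change of 0.09 with an interval of -0.38 to 0.56. Its 2 group means were closer than the SD of either group. S100b was at 1211 ± 180 CPM with and 1323 ± 380 CPM without (SD, n = 4), a fitted log2 fold change of -0.07 with an interval of -0.61 to 0.46. Slc1a3 was at 307 ± 21.3 CPM with and 327 ± 45.2 CPM without (SD, n = 4), a fitted log2 fold change of -0.02 with an interval of -0.48 to 0.43. For Glul, Aqp4, S100b and Slc1a3 the difference between the means was smaller than the SD of either group; for Apoe it was larger than the untrained SD and smaller than the trained SD. The adjusted p by edgeR was 0.999 for every one of the 5. The sign of the difference turned without untrained 1 or trained 3 for Glul, without trained 1 for Aqp4, without untrained 3, untrained 4 or trained 1 for S100b, and without untrained 3 or trained 2 for Slc1a3.

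**Figure D2:**
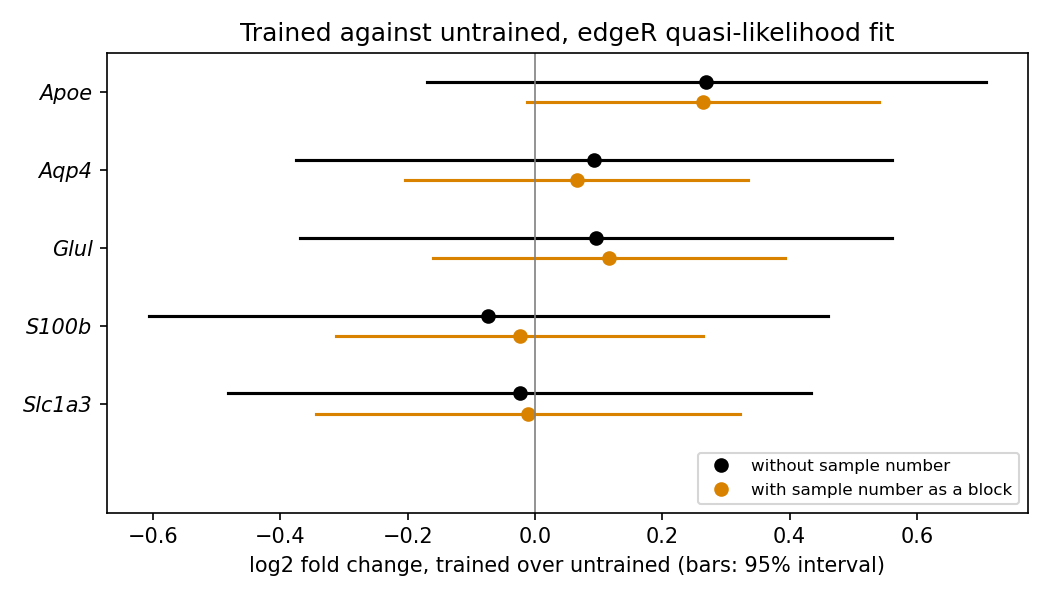
Fitted log2 fold change of trained over untrained (horizontal axis) with its 95% interval for the 5 members tested, without (black) and with (orange) the sample number as a block in the edgeR fit. All intervals include 0; that of Apoe with the block runs from -0.01 to 0.54.

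What these fits limit is the size of a difference. For 5 of 5 members both ends of the 95% interval were under a 2-fold change, as for 75.4% of all genes tested. Both ends were under a 1.5-fold change for 3 of 5 members (Slc1a3, Glul and Aqp4), as for 11.3% of all genes. The remaining 2 reached a fold of 0.657 on the low side (S100b) and 1.63 on the high side (Apoe). With the sample number as a block they were so for 5 of 5 members, as for 32.9% of all genes. The median standard error of the members' log2 fold changes was 0.22, against 0.30 over all genes. Fits of genes with fewer counts carry more counting error, and the members were abundant. The shares and standard errors of members and of all genes are therefore not directly comparable.

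Libraries with the same sample number deviated together across genes, and the numbers were treated as pairs. Whether equal numbers deviated together more than unequal ones was not tested, and depth also followed the number in both groups. Within these pairs Apoe was higher with training in 4 of 4, which held for 5.34% of all genes tested. No other member kept 1 direction: 0 of 5 were lower with training in 4 of 4 pairs, which held for 10.3% of all genes. These 2 shares rest on CPM by column totals, which place the median gene lower with training. The ratio of trained to untrained CPM was 1.43 for sample 1, 1.10 for sample 2, 1.03 for sample 3 and 1.06 for sample 4. Most of the mean difference therefore came from the pair of sample 1. Slc1a3 and Glul were higher with training in 2 pairs and lower in 2. Aqp4 was higher in 3 pairs, with ratios of 1.03 to 1.12, and lower in sample 3 with a ratio of 0.779. S100b was lower in 3 pairs, with ratios of 0.724 to 0.946, and higher in sample 2 with a ratio of 1.25. With the block, 0 of 5 members had an adjusted p under 0.05 and 0 of 5 an unadjusted p under 0.05 by edgeR, where 0% and 5.11% of all genes did. The log2 fold change of Apoe was then 0.26 (95% interval -0.01 to 0.54, adjusted p = 0.914 by edgeR), and without both libraries of number 1 it was 0.13 (adjusted p = 0.992 by edgeR).

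The size of the Apoe difference also moved with a possible limit on counting. The highest count of any gene was between 3463 and 4012 in each of the 8 libraries, just under 4096, the number of different tags that 6 bases can spell. The sources used here do not give the length of the molecular tags. If such a ceiling applies, the 959 to 1999 counts of Apoe understate its molecules, and more so in the deeper libraries, which were the untrained ones at each number. Corrected for a ceiling of 4096, Apoe was at 7282, 8184, 6003 and 6351 CPM in untrained samples 1 to 4 and at 10018, 8812, 5914 and 6637 CPM in trained samples 1 to 4. The corrected ratios within pairs were 1.38, 1.08, 0.985 and 1.05, so 3 of 4 and not 4 of 4 pairs were higher with training. The fitted log2 fold change was 0.22 (adjusted p = 0.99993 by edgeR). From the counts as deposited, Apoe was 15.8 to 24.7 times Slc1a3 in the untrained libraries and 20.7 to 27.9 times in the trained ones. From the corrected counts it was 18.6 to 33.5 times and 23.4 to 35.7 times, and the groups overlapped on both scales.

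**Figure D3:**
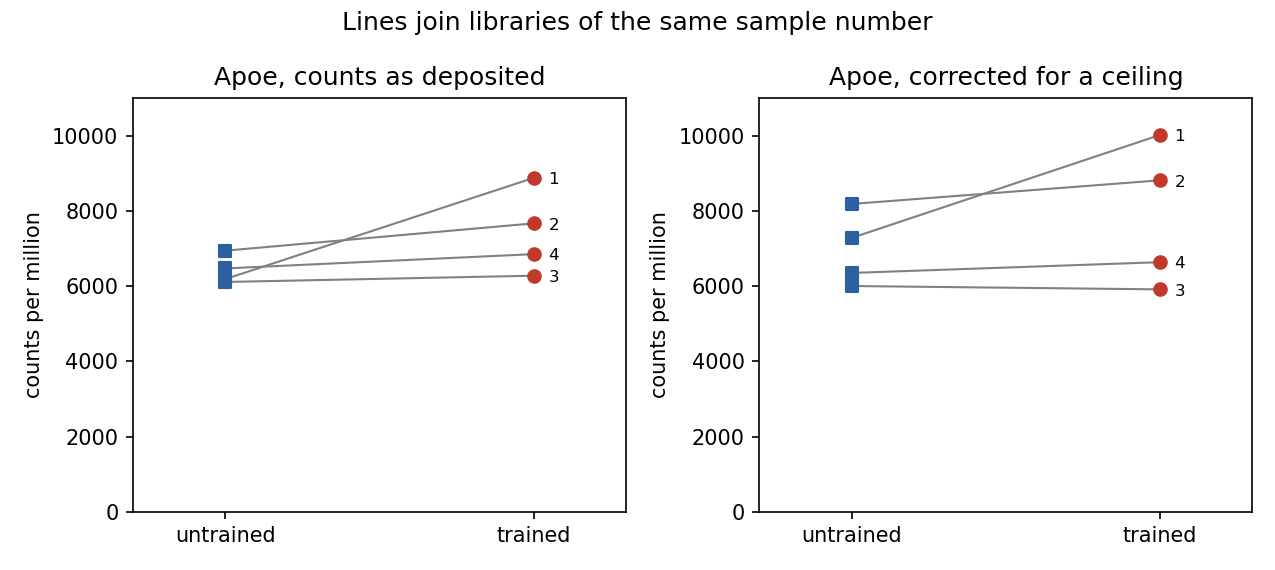
Apoe in CPM (vertical axes from 0) in untrained (blue) and trained (red) libraries, from the counts as deposited (left) and from counts corrected for a ceiling of 4096 per gene and library (right); lines join libraries of the same sample number. The line of sample 1 is the steepest in both, and that of sample 3 turns from a ratio of 1.03 to 0.985.

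Several members varied more with the sample number than with training. The number accounted for 88.6% of the spread of log2 CPM of Aqp4, 76.8% of that of Glul and 75.1% of that of S100b, and the training group for 0.0230%, 1.19% and 2.53%. For Apoe the shares were 37.0% and 32.4%, and for Slc1a3 36.5% and 8.42%. A factor of 4 levels such as the number takes a larger share by itself than the group, which has 2. The 2 shares of a gene are therefore not directly comparable, and they were not computed over all genes. The median span of fitted levels among the 4 numbers was 0.57 on the log2 scale for the 5 members and 0.73 over all 3016 genes. Spans of genes with fewer counts carry more counting error, and the members were abundant, so the 2 medians are not directly comparable. Ranked by the p-value of the edgeR test among numbers, S100b was at place 237, Aqp4 at 720 and Glul at 781 of 3016. Slc1a3 was at place 1950 and Apoe at 2922. What the number stands for is not given in the labels.

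**Figure D4:**
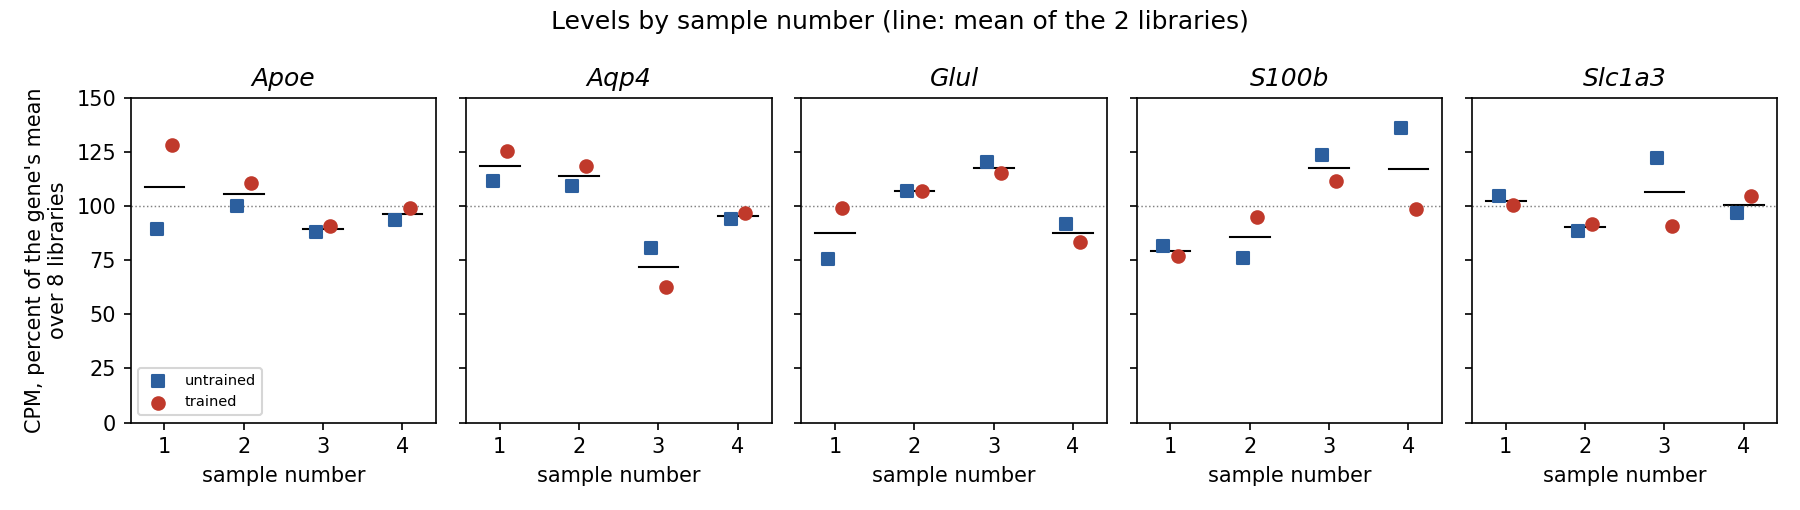
CPM of each gene as a percent of its own mean over 8 libraries (vertical axis) by sample number (horizontal axis), with untrained libraries as blue squares, trained ones as red circles and the mean of both as a line. Aqp4 is lowest at number 3, where Glul is highest, and S100b is higher at numbers 3 and 4 than at 1 and 2.

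The members did not follow the number in the same way. S100b averaged 1005 and 1085 CPM at numbers 1 and 2 and 1491 and 1486 CPM at numbers 3 and 4. Aqp4 ran the other way, with 2907 and 2789 CPM at numbers 1 and 2, 1757 CPM at number 3 and 2344 CPM at number 4. Glul was highest at number 3 with 1993 CPM and lower at numbers 1 and 4 with 1478 and 1484 CPM. The count of Aqp4 was 2.41 to 3.15 times that of S100b in the 4 libraries of numbers 1 and 2 and 1.09 to 1.90 times in the 4 of numbers 3 and 4, a ratio chosen after the values were seen. In each group the libraries of numbers 1 and 2 were also deeper than those of 3 and 4. The part of depth in this pattern was not tested. Thinning all libraries to the smallest draws counts at random and keeps each gene's expected share. It therefore cannot show whether the shares themselves depend on depth. Thinning left the highest number of Aqp4 at 1 and the lowest at 3, and those of Glul at 3 and 1. For S100b the lowest stayed at 1 and the highest moved from 3 to 4. The highest also moved to 4 for Slc1a3, from 3, and for Apoe, from 1.

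In a fit with number and group, the test among the 4 numbers called 1 of the 5 members (adjusted p under 0.05 by edgeR) and 12.6% of the 3016 genes. That background itself moved with single libraries. The 381 genes called became 65 without trained 4, 99 without untrained 4, 122 without trained 2 and 123 without untrained 2. They became 253 without trained 3, 321 without untrained 3, 529 without untrained 1 and 543 without trained 1. That member was S100b, whose highest and lowest numbers differed by 0.71 on the log2 scale, under the median span of all genes (adjusted p = 0.0298 by edgeR). The call was lost with column totals in place of TMM (adjusted p = 0.0639) and without any 1 of 6 libraries: samples 2, 3 or 4 of either group (adjusted p = 0.0567 to 0.110). Aqp4 and Glul spanned 0.59 and 0.57 and did not pass (adjusted p = 0.123 and 0.145 by edgeR). With column totals it was Aqp4 that passed (log2 span 0.72, adjusted p = 0.0256 by edgeR), where 470 of the 3016 genes did. Aqp4 also passed without the filter (adjusted p = 0.0378), without untrained sample 1 (adjusted p = 0.0104) and without trained sample 1 (adjusted p = 0.0322), all by edgeR. Glul passed without trained sample 1 (adjusted p = 0.00314 by edgeR). S100b passed without the filter, without untrained sample 1 and without trained sample 1 (adjusted p = 0.0137, 0.0104 and 0.00169 by edgeR). In these settings 572 of 12545, 529 of 3143 and 543 of 3319 genes were called. Slc1a3 and Apoe, with spans of 0.41 and 0.13, had an adjusted p of 0.487 and 0.934 by edgeR.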

How the data were processed

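The authors deposited 1 table of whole-number UMI counts per Ensembl rat gene, 1 column per sample, from CEL-Seq2 libraries, which tag molecules and count 3′ ends, per the labels' protocols. HISAT2 2.0.4, HTSeq 0.6.0 and build Rnor_6.0 are named in the submitters' processing notes; the sources used here do not give annotation release, strand setting or tag length. Totals ran from 141737 to 298262 counts.

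All 8 samples were fitted in edgeR 4.0.16 (R 4.3.3): expression filter by group (minimum count 10, minimum total 15), TMM, quasi-likelihood test on group, Benjamini-Hochberg adjustment over the 3016 genes kept, threshold 0.05. A second fit tested differences among the 4 sample numbers with group as covariate. CPM used column totals. The coefficient of variation from counting assumes Poisson counts. The ceiling correction took n = -K ln(1 - k/K) with K = 4096. The edgeR script was tested on simulated data. The group changes simulated were larger than any fitted for the members, so this does not show whether differences of the members' size would be called. The members, lists and tests were chosen with earlier results of these data known. All 6 members are named. Marker and pathway lists fixed by symbol could not be matched to identifiers and were not used here. The labels do not say that samples are separate animals. The p-values set a difference against the spread between these samples, which for each gene is estimated partly from other genes.

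Titles number the samples 1 to 4 per group. The correlation across genes of same-number deviations from group means was 0.34, 0.40, 0.27 and 0.51, all over the limit of 0.1, so the numbers were treated as pairs; this comes from the counts, not the labels. Alternatives were DESeq2 1.42.0, limma 3.58.1 voom, other scalings and filters, thinning, the ceiling, the block and left-out samples.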

Additional observations from a re-analysis of the deposited data

How the results depend on the processing

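Over 25 alternatives for training, none of the 5 members tested was called (adjusted p 0.713 to 0.99997 for Apoe, and at least 0.794 for the others). Apoe stayed higher with training in 25 of 25, with a log2 fold change of 0.13 to 0.32. The alternatives reuse the same libraries, and the share of all genes that kept their sign was not computed. With the replicate block no member's call changed; the block gave -0.01 for Slc1a3, 0.12 for Glul, 0.07 for Aqp4, -0.02 for S100b and 0.26 for Apoe. Signs turned for S100b with limma voom (0.0046) and with the block without both samples of number 4 (0.12); for Aqp4 with the block and column totals (-0.0020) and with the block without number 1 (-0.015); for Glul with the block without number 1 (-0.019); and for Slc1a3 with the block without number 3 (0.10). When 1 sample was left out the values ran from -0.11 to 0.10 for Slc1a3, -0.039 to 0.24 for Glul, -0.018 to 0.24 for Aqp4 and -0.21 to 0.12 for S100b. The count of genes called, 0, became 6 with no filter on low counts, 2 with the block and column totals, and 4, 1 and 2 with the block without numbers 1, 2 and 4.

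Among sample numbers, 381 genes were called. The count was 470 with column totals, 572 without the filter, and 65 to 543 when 1 sample was left out. S100b spanned 0.57 with column totals, where its call was lost, and 0.64 to 0.94 without 1 sample, where it was lost in 6 of 8. Aqp4 spanned 0.72 with column totals and 0.65 without the filter, both called, and 0.36 to 0.83 without 1 sample; Glul spanned 0.45 to 0.86 without 1 sample. No filter and left-out samples were added for this fit after the data were seen. Slc1a2 had too few counts to be fitted under the filter. Dixon's rule flagged 0 samples in the 10 sets of 4 CPM values examined. With 4 values it flags only a gap that takes up most of the range, so an unflagged sample can still lie apart. The 8877 CPM of Apoe in trained sample 1 was not flagged.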

Other observations

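The 2 genes whose levels over the 8 samples were most like the mean of the 5 tested members (each standardised on log2 CPM) were ENSRNOG00000016396, with a Pearson r of 0.89, and ENSRNOG00000008465, with a Pearson r of 0.86. ENSRNOG00000016396 was at 46.9 to 109 CPM without and 52.4 to 87.7 CPM with training, and ENSRNOG00000008465 at 852 to 1768 CPM without and 923 to 1833 CPM with training. These are the highest of the genes tested, over libraries that share depth and sample number, and are given as a description without a p.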
